A study of Mus musculus with 6 samples.

Results

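The aryl hydrocarbon receptor and a set of its best-known target genes were followed in WT and RORγtN275D Th17 cells. The members were the receptor gene *Ahr*, the feedback repressor genes *Ahrr* and *Tiparp*, the cytochrome genes *Cyp1a1* and *Cyp1b1*, and the quinone reductase gene *Nqo1*. They were taken by gene symbol, and all 6 were found among the 16244 genes of the table. Naive CD4+ T cells from the spleens of WT mice or of mice carrying the RORγt substitution N275D were kept in culture under pathogenic Th17 conditions, and RNA was sequenced at day 3 from 3 libraries per genotype. According to the methods, both genotypes were on a C57BL/6 background and were stimulated through CD3 and CD28 in Iscove's medium with IL-6, IL-23 and IL-1β. The methods also list TGF-β and antibodies to IL-4 and IFN-γ, whereas the series description names the first 3 cytokines only. The methods list knockin mice from another source than the purchased WT mice, and name littermate controls, where applicable, for the transfer experiments. Which WT mice gave these libraries is not stated. Unless they were littermates, a difference between the 2 breeding sources and an effect of the substitution cannot be told apart. The labels give no age, sex or number of copies of the mutant allele for these libraries, and they do not say whether the replicates were separate cultures or mice. The p-values therefore measure the spread between these libraries only.

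The aryl hydrocarbon receptor is a ligand-activated transcription factor of the bHLH-PAS family. Without ligand it is held in the cytosol by HSP90 and co-chaperones. With ligand it enters the nucleus, pairs with ARNT and binds DNA elements built around the core GCGTG. Its targets include the enzymes CYP1A1 and CYP1B1, which break ligands down, and the proteins AHRR and TIPARP, which restrain the receptor. Th17 cells are known for high *Ahr* among T helper subsets, and the receptor is known to be needed for their IL-22. Iscove's medium is known to hold natural ligands of the receptor. ARNT is also the partner of HIF-1α.

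The promoters of the 3 targets that were lower in the mutant cells are shown here to place the receptor's core element before each start site. They are the 250 bases upstream of the RefSeq start site on GRCm38.p6, the build mm10, written 5′ to 3′ on the gene's strand. Capitals mark GCGTG or its reverse complement.
*Tiparp*, chr3:65528197-65528446, plus strand: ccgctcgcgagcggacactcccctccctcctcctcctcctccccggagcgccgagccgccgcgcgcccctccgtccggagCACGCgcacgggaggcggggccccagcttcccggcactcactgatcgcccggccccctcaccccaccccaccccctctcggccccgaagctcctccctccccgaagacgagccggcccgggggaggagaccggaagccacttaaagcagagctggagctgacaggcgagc
*Cyp1b1*, chr17:79715062-79715311, minus strand: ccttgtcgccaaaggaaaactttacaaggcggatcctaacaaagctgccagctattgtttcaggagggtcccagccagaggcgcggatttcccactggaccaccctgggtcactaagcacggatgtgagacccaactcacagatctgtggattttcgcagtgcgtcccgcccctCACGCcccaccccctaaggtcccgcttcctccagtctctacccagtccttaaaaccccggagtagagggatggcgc
*Ahrr*, chr13:74292332-74292581, minus strand: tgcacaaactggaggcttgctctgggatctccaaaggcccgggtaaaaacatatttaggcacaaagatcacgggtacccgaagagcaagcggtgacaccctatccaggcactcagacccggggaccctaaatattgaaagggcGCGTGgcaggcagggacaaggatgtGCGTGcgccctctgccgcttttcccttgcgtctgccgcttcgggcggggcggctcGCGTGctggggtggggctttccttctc
*Ahrr* had 3 copies of the core, and *Tiparp* and *Cyp1b1* had 1 copy each. The first base of the core lay 170 bases before the start site in *Tiparp* and 76 bases before it in *Cyp1b1*. In *Ahrr* the copies began 107, 82 and 27 bases before the start. The *Cyp1a1* window held 1 copy and the *Nqo1* window held 0. The *Cyp1a1* window, chr9:57697363-57697612, lay inside the gene span given below, which begins at 57687928. Its start site is thus not the first base of that span. *Ahr* was not matched in the promoter table, so 5 of 6 members are described. At least 1 copy, on either strand, was found in 28.2% of 32851 promoter windows of this length, and at least 3 copies in 2.77%. These shares were not matched for base content. G and C made up 75.2% of the window of *Tiparp*, 58.0% of that of *Cyp1b1* and 60.4% of that of *Ahrr*. GCGTG is also one form of the HIF-1 element, so these letters do not separate the receptor from HIF-1. None of the 5 windows held ACGTG, the other form of the HIF-1 element, AGGTCA, the core bound by ROR factors, or TGACNNNGC, the core of the antioxidant element, on either strand. Those letters were present in 16.6%, 14.0% and 10.2% of all windows, respectively. The windows are short, and the known enhancers of *Cyp1a1* lie further upstream, so a count of 0 says only that the letters are not in these bases.

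Reads on genes ranged from 17659035 to 18510878 per library. WT replicate 3 stood apart from its group, since the WT pairs that hold it differed by a median of 3.24 and 3.32 times what counting alone gives, against 1.34 to 1.57 times for the other pairs within a genotype. Values are the authors' normalized reads, which are whole reads multiplied by 1 factor per library. Genes whose mean reached 10 normalized reads, 11908 in number, were tested with limma on the log2(normalized reads + 1) scale, with adjustment over all of them. All 6 genes of a Th17 list (*Cd3e*, *Cd4*, *Il17a*, *Il17f*, *Il23r* and *Ccr6*) were detected, with summed levels of 71488 to 75425 normalized reads in WT and 83603 to 84417 in mutant libraries. Of these, *Il17a*, *Il17f*, *Il23r* and *Ccr6* were called higher, while *Cd4* (log2 fold change -0.27, adjusted p = 1.16e-05 by limma) and *Cd3e* (-0.22, adjusted p = 0.00586 by limma) were called lower. Markers of B cells summed to 150 to 160 normalized reads in WT and 214 to 273 in mutant libraries, and 3 of the 4 tested were called higher. For CD8 T and natural killer cells, *Ncr1* was not in the table, and the other markers summed to 182 to 195 and to 251 to 281. Of the 3 tested, *Cd8b1* and *Eomes* were called higher, while *Cd8a* had a log2 fold change of -0.22 without a call. Markers of myeloid cells summed to 86.8 to 104 and to 84.9 to 113, with 1 of 2 tested called lower. Of 5 listed genes of gamma delta T cells and innate lymphocytes, only *Sox13* and *Zbtb16* were in the table. *Trdc*, *Tcrg-C1* and *Trdv4* were not. The 2 present summed to 21.2 to 35.4 and to 39.9 to 43.5, and *Sox13* was tested and called higher. These counts of calls stand against 24.7% called higher, 26.1% called lower and 50.9% in either direction over all genes tested. The part of these other cells in the results below was not tested. In these bulk libraries, fewer cells that express a gene and less of its RNA per cell cannot be told apart.

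The receptor transcript was higher in RORγtN275D than in WT Th17 cells, while 3 of its targets were lower. *Ahr* rose by 23.9%. *Tiparp* fell by 33.4%, *Ahrr* fell by 29.3% and *Cyp1b1* fell by 23.4%. Of the 5 members that passed the minimum, 1 was called higher, 3 were called lower and 1 was not called, at an adjusted p under 0.05. Over all genes tested, 24.7% were called higher, 26.1% lower and 50.9% in either direction. No member reached 2-fold, as 3.59% of all genes tested did with a call. *Cyp1a1*, with a mean under 10, was not tested by limma.

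**Figure D1:**
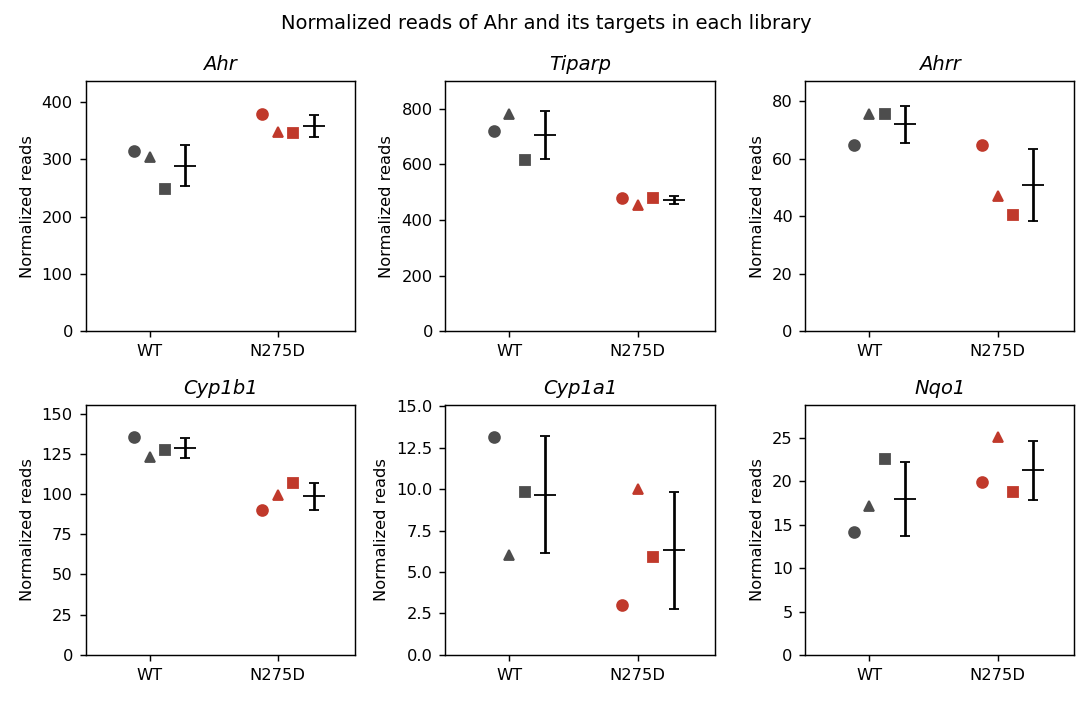
Normalized reads (y axis, from 0) of the 6 members in the 3 WT (grey) and 3 N275D (red) libraries, with circles, triangles and squares for replicates 1, 2 and 3 and the bar for the mean ± SD. *Ahr* lies higher in every N275D library, *Tiparp* and *Cyp1b1* lie lower in every N275D library, and the genotypes overlap in *Ahrr*, *Cyp1a1* and *Nqo1*.

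*Ahr* (gene 11622, GRCm38 chromosome 12, 35497979 to 35534989) encodes the receptor itself. It had 314, 304 and 248 normalized reads in WT replicates 1, 2 and 3, and 379, 347 and 346 in the mutant replicates. All 3 mutant libraries lay above all 3 WT libraries, and WT replicate 3 was the lowest. Over all genes tested, the genotypes did not overlap in 57.7%, with the mutant libraries higher in 28.1% and lower in 29.6%. The means were 288 ± 35.7 and 357 ± 19.1 normalized reads (n = 3 each, SD). The log2 fold change of *Ahr* was 0.31 (SE 0.09, 95% interval 0.13 to 0.50, adjusted p = 0.00660 by limma). Larger increases were found in 16.9% of the genes tested, so the rise of the receptor was moderate among the changes of this comparison. Without WT replicate 3 the log2 fold change was 0.21 (adjusted p = 0.0195 by limma), about 1.5 times smaller.

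Among the restraining factors, *Tiparp* (gene 99929, chromosome 3, 65528447 to 65555518) encodes a mono-ADP-ribosyltransferase that is induced by the receptor and limits its activity. It had 721, 782 and 614 normalized reads in the WT replicates and 477, 453 and 479 in the mutant replicates. Every mutant library lay below every WT library, and the mutant libraries lay close together while the WT libraries were spread. The means were 705 ± 85.0 and 470 ± 14.2 normalized reads (n = 3 each, SD). With a log2 fold change of -0.58 (SE 0.08, 95% interval -0.74 to -0.42, adjusted p = 1.00e-05 by limma), the fall of *Tiparp* was exceeded by 2.96% of the genes tested. *Ahrr* fell further than *Tiparp* under quantile normalization and without WT replicate 1 or mutant replicate 1, so the order of the members that fell is not settled. Without WT replicate 3 the log2 fold change of *Tiparp* was -0.68. The start of *Tiparp* is overlapped in the RefSeq annotation by the long noncoding RNA *4931440P22Rik*, which is not among the genes of the table, and the strand setting of the counting is not given in the sources used here.

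*Ahrr* (gene 11624, chromosome 13, 74211118 to 74292331) encodes the receptor's repressor, a bHLH-PAS protein that competes with it for ARNT. Its normalized reads were 64.6, 75.7 and 75.6 in the WT replicates and 64.9, 47.2 and 40.5 in the mutant replicates. Mutant replicate 1 was as high as WT replicate 1, so the genotypes overlapped, and the other mutant libraries lay below all WT libraries. The means were 72.0 ± 6.38 and 50.8 ± 12.6 normalized reads (n = 3 each, SD). The log2 fold change of *Ahrr* was -0.52 (SE 0.17, 95% interval -0.87 to -0.16, adjusted p = 0.0173 by limma). This call was lost in DESeq2 (adjusted p = 0.0889), without the trended prior (adjusted p = 0.0541 by limma), and without WT replicate 2, mutant replicate 2 or mutant replicate 3 (adjusted p = 0.0508, 0.0561 and 0.0965 by limma). The direction of *Ahrr* was lower in all 15 alternatives that gave a value, with -0.48 without WT replicate 3.

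The cytochromes of family 1 oxidize ligands of the receptor, and their induction is the standard readout of its activity. *Cyp1b1* (gene 13078, chromosome 17, 79706940 to 79715061) had 135, 123 and 128 normalized reads in the WT replicates and 89.8, 99.3 and 107 in the mutant replicates. Every mutant library lay below every WT library. The means were 129 ± 6.15 and 98.6 ± 8.43 normalized reads (n = 3 each, SD). Its log2 fold change was -0.38 (SE 0.11, 95% interval -0.61 to -0.16, adjusted p = 0.00711 by limma). DESeq2 on the recovered reads gave the same size without a call (adjusted p = 0.0632). Without WT replicate 3 the log2 fold change of *Cyp1b1* was -0.39.

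*Cyp1a1* (gene 13076, chromosome 9, 57687928 to 57703824) was close to the detection limit in both genotypes. It had 13, 6 and 10 reads in the WT replicates and 3, 10 and 6 in the mutant replicates, or 29 and 19 reads in all, and the genotypes overlapped. The means were 9.67 ± 3.54 and 6.32 ± 3.53 normalized reads (n = 3 each, SD). The depth-adjusted ratio of mutant to WT reads was 0.669, with an exact 95% interval of 0.354 to 1.23 that covers counting error only. An exact two-sided permutation test of the 3 against 3 libraries gave p = 0.4, where 0.1 is the smallest value it can give. With 3 against 3 libraries this test can thus call no fall of any size. The counting interval of *Cyp1a1* holds both no change and a fall of the size seen in *Tiparp*, whose ratio was 0.666. Its neighbour and close relative *Cyp1a2* had 1 read in each WT library and 0 in each mutant library, too few for a comparison.

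*Nqo1* (gene 18104, chromosome 8, 107388225 to 107403205) encodes a quinone reductase that is a target of the receptor and also of NRF2, the regulator of antioxidant genes. It had 14.1, 17.1 and 22.6 normalized reads in the WT replicates and 20.0, 25.1 and 18.8 in the mutant replicates. The genotypes overlapped. The means were 18.0 ± 4.29 and 21.3 ± 3.35 normalized reads (n = 3 each, SD). *Nqo1* had a log2 fold change of 0.25 (SE 0.25, 95% interval -0.29 to 0.78, adjusted p = 0.438 by limma). The interval holds both no change and increases larger than that of *Ahr*. The estimate was 0.0955 without WT replicate 1, 0.13 without mutant replicate 2, 0.42 without WT replicate 3 and 0.0143 under quantile normalization, and *Nqo1* was called in none of these.

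**Figure D2:**
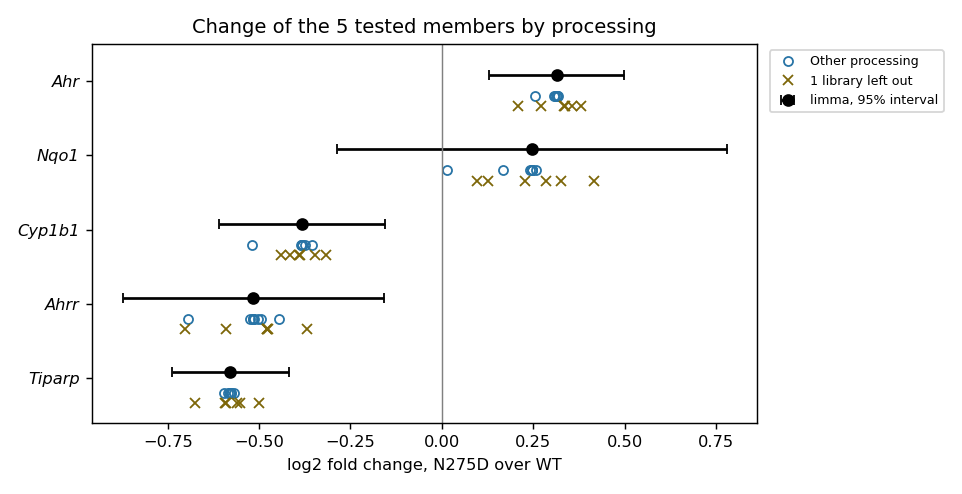
The log2 fold change of N275D over WT cells (x axis) for the 5 members tested, with the limma estimate and its 95% interval in black, other processing choices as open blue circles and fits without 1 library as brown crosses. *Ahr* stays above 0, *Cyp1b1*, *Ahrr* and *Tiparp* stay below 0 in every fit drawn, and the interval of *Nqo1* spans 0.

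Levels of different genes were compared per kilobase of exon, from the union of GENCODE M21 exons. In WT cells *Tiparp* had the highest level, 162 ± 19.5 normalized reads per kilobase, followed by *Ahr* with 46.8 ± 5.80 and *Cyp1b1* with 22.0 ± 1.05 (n = 3 each, SD). *Nqo1* had 11.6 ± 2.76, *Ahrr* 7.62 ± 0.676 and *Cyp1a1* 3.47 ± 1.27 normalized reads per kilobase in WT cells (n = 3 each, SD). No neighbours in this order overlapped between the WT libraries. In mutant cells the order was the same, with 108 ± 3.27 for *Tiparp*, 58.0 ± 3.09 for *Ahr*, 16.9 ± 1.44 for *Cyp1b1*, 13.7 ± 2.16 for *Nqo1*, 5.39 ± 1.34 for *Ahrr* and 2.27 ± 1.27 for *Cyp1a1*, in normalized reads per kilobase (n = 3 each, SD). *Cyp1b1* and *Nqo1* overlapped there. The classical inducible enzyme *Cyp1a1* was thus the lowest of the 6 members per kilobase in both genotypes.

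The ratio of reads between 2 genes of 1 library does not depend on how the libraries were scaled. Each WT library held 2.30, 2.57 and 2.48 reads of *Tiparp* per read of *Ahr*, and each mutant library 1.26, 1.31 and 1.39. The 2 ranges lay far apart compared with their spread. Reads of *Cyp1b1* per read of *Ahr* were 0.431, 0.405 and 0.516 in WT and 0.237, 0.286 and 0.309 in mutant libraries. Reads of *Ahrr* per read of *Ahr* were 0.206, 0.249 and 0.306 in WT and 0.171, 0.136 and 0.117 in mutant libraries. This ratio did not overlap between genotypes, whereas *Ahrr* itself did. The ratio also holds the rise of *Ahr*, so its separation adds nothing on the fall of *Ahrr*. The share of all genes whose ratio to *Ahr* does not overlap was not computed. The ratios to *Ahr* of *Cyp1a1* and *Nqo1* overlapped. These ratios join the changes of 2 genes and are given as a description, chosen after the values were seen.

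*Arnt*, the partner that the receptor shares with HIF-1α, was compared in the same way. The ratio of *Ahr* to *Arnt* reads was 0.268, 0.256 and 0.210 in WT and 0.254, 0.235 and 0.240 in mutant libraries, which overlapped. The ratio of *Hif1a* to *Arnt* reads went from 4.36 ± 0.267 in WT to 5.97 ± 0.139 in mutant cells (n = 3 each, SD), without overlap. *Ahr* reads per read of *Hif1a* went from 0.0560 ± 0.00378 in WT to 0.0407 ± 0.00222 in mutant cells (n = 3 each, SD). The overlap of *Ahr* to *Arnt* rested on WT replicate 3, which stood apart from its group. WT replicates 1 and 2 lay above every mutant library in this ratio. Without WT replicate 3 the log2 fold change was 0.21 for *Ahr* and 0.32 for *Arnt*. Whether the 2 transcripts rose equally is therefore not settled. *Ahr* did not keep pace with *Hif1a*, whose log2 fold change was 0.78.

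**Figure D3:**
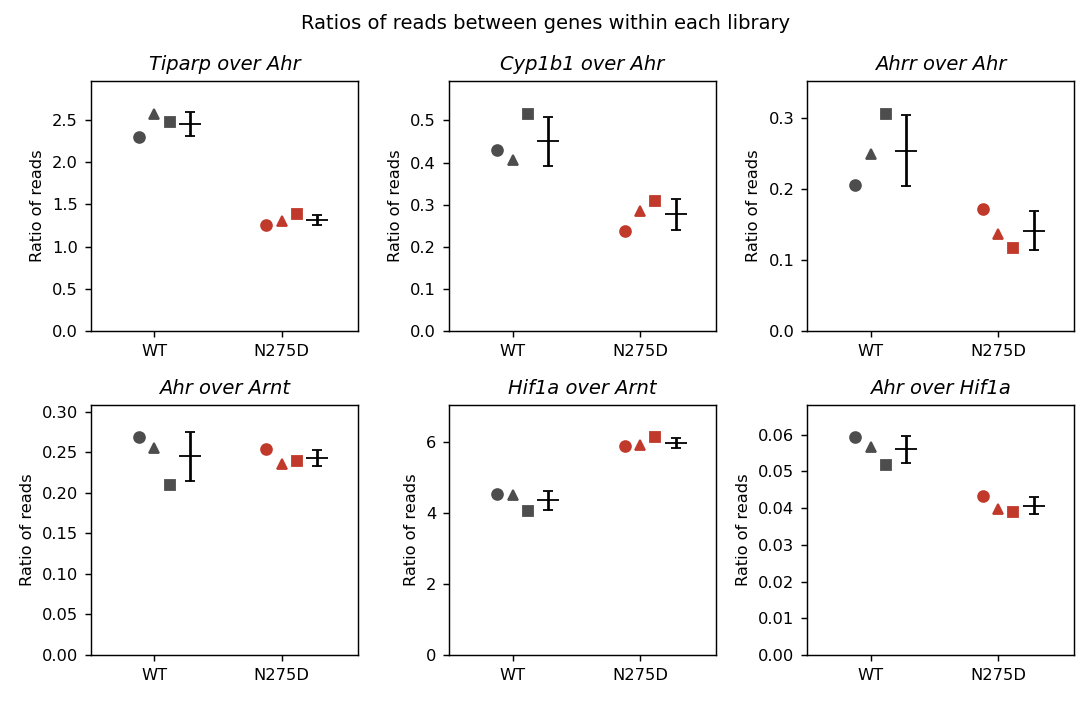
Ratios of reads between 2 genes of the same library (y axis, from 0, no unit) in the 3 WT (grey) and 3 N275D (red) libraries, with circles, triangles and squares for replicates 1, 2 and 3 and the bar for the mean ± SD. *Tiparp*, *Cyp1b1* and *Ahrr* per *Ahr* are lower in every N275D library, *Ahr* per *Arnt* overlaps between genotypes, and *Hif1a* per *Arnt* is higher in every N275D library.

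Around the members, genes of the pathway were counted in lists written from general knowledge. Each count of calls below stands against 24.7% called higher, 26.1% called lower and 50.9% called in either direction over all genes tested. Of 5 partners of the receptor, 5 were tested, 1 was called higher and 1 lower, and the median log2 fold change was -0.06, against a median of 0.00 over all genes tested. *Arnt* was called higher (log2 fold change 0.32, adjusted p = 1.59e-05 by limma). *Hsp90ab1*, the more abundant of the HSP90 genes, had means of 94318 ± 1657 and 89493 ± 1293 normalized reads (n = 3 each, SD) in WT and mutant libraries. *Hsp90ab1* had a log2 fold change of -0.08 (adjusted p = 0.0479 by limma), a call that was lost in 11 of 16 alternatives. The co-chaperone gene *Ptges3*, *Hsp90aa1* and *Arnt2* were not called.

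Of 10 other targets, 7 were tested, 3 were called higher, 1 was called lower, and the median log2 fold change was 0.14. *Cyp2s1*, another cytochrome that the receptor and HIF-1 are known to induce, had 44.4, 46.4 and 35.4 normalized reads in the WT replicates and 148, 162 and 172 in the mutant replicates. Its rise, with a log2 fold change of 1.91 (SE 0.13, adjusted p = 8.09e-09 by limma), went the opposite way from *Cyp1b1*. *Xdh*, encoding xanthine dehydrogenase, rose with a log2 fold change of 1.23 (adjusted p = 0.000140 by limma), *Nfe2l2* rose with 0.21, and *Polk*, encoding a DNA polymerase that bypasses adducts, fell with -0.28 (adjusted p = 0.00206 by limma). Among the remaining targets, *Ugt1a6a* had a log2 fold change of -0.27 without a call (adjusted p = 0.257 by limma). *Aldh3a1* and *Cyp1a2* were under the minimum, and *Gsta1* was not analysed here. *Aldh3a1* had 5, 6 and 6 reads in the WT replicates and 5, 0 and 2 in the mutant replicates, too few for a comparison.

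Of 12 genes linked to the receptor in T cells and innate lymphocytes, 12 were tested, 7 were called higher, 1 was called lower, and the median log2 fold change was 0.31. *Entpd1*, encoding the ectonucleotidase CD39, went from 35.6 ± 5.50 in WT to 86.3 ± 8.50 normalized reads in mutant cells (n = 3 each, SD), a log2 fold change of 1.26 (adjusted p = 5.87e-06 by limma). *Il10* rose from 46.3 ± 11.3 to 75.1 ± 5.11 normalized reads (n = 3 each, SD), a log2 fold change of 0.71 (adjusted p = 0.00276 by limma). *Il23r* rose with a log2 fold change of 0.70, and *Il21* was the 1 gene called lower, with -0.60. *Il22*, the cytokine most closely tied to the receptor and named for that reason after its value was seen, had 3593, 3491 and 3293 normalized reads in the WT replicates and 4401, 4415 and 4501 in the mutant replicates. Its log2 fold change was 0.36 (SE 0.04, adjusted p = 1.79e-06 by limma), and the genotypes did not overlap. *Il17a* (0.23) and *Il17f* (0.26), other Th17 cytokine genes of the list, were also called higher, so a rise was not particular to *Il22*.

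The next list held enzymes and transporters that make or carry tryptophan-derived ligands. Of 15 genes listed, 14 were in the table and 10 were tested, 1 was called higher and 1 lower, and the median log2 fold change was -0.04. *Slc3a2*, encoding the heavy chain of the amino acid transporter that also carries kynurenine, rose from 5637 ± 192 to 7673 ± 344 normalized reads (n = 3 each, SD), a log2 fold change of 0.44 (adjusted p = 1.91e-07 by limma). Its light chain *Slc7a5* was not called, with a log2 fold change of -0.02. *Kyat3*, a kynurenine aminotransferase gene, had a log2 fold change of -0.31 with overlapping genotypes (adjusted p = 0.0319 by limma), and this call was lost in 7 alternatives. *Ido1*, *Ido2* and *Il4i1*, whose products start the conversion of tryptophan to ligands, were detected and not called.

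*Nqo1* shares its control with NRF2, so 11 genes around NRF2 were counted. All 11 were tested, 4 were called higher and 3 lower, and the median log2 fold change was 0.08. *Me1* (1.56), *Slc7a11* (0.76) and *Srxn1* (0.68) had the largest log2 fold changes of this list, while *Nfe2l2*, the gene of NRF2 itself, had 0.21. *Gclc*, *Txnrd1* and *Prdx1* were called lower. The uncalled change of *Nqo1* thus stood beside called changes in both directions.

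Among 14 other bHLH-PAS genes, which include *Arnt*, 10 were tested, 4 were called higher and 1 lower, with a median log2 fold change of 0.35. *Epas1*, encoding HIF-2α, rose from 20.4 ± 3.43 to 57.1 ± 4.75 normalized reads (n = 3 each, SD), a log2 fold change of 1.45 (adjusted p = 8.93e-06 by limma). *Hif1a*, *Arnt* and *Arntl2* were the other genes called higher. *Npas4*, an activity-induced factor, had a log2 fold change of -1.58 (adjusted p = 2.96e-10 by limma). The log2 fold change of *Ahr* was smaller in size than those of *Epas1*, *Hif1a* and *Npas4*. Of 10 targets of HIF-1, 9 were tested, 5 were called higher and 2 lower, and the median log2 fold change was 0.17. The largest changes in that list were in *Ndrg1* (1.28), *Bnip3* (1.04) and *Egln3* (0.45). *Pdk1* and *P4ha1* were also called higher, and *Slc2a1* and *Ankrd37* were called lower. *Ankrd37* overlapped between the genotypes. In some alternatives, quantile normalization among them, 1 gene of this list was called lower instead of 2.

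**Figure D4:**
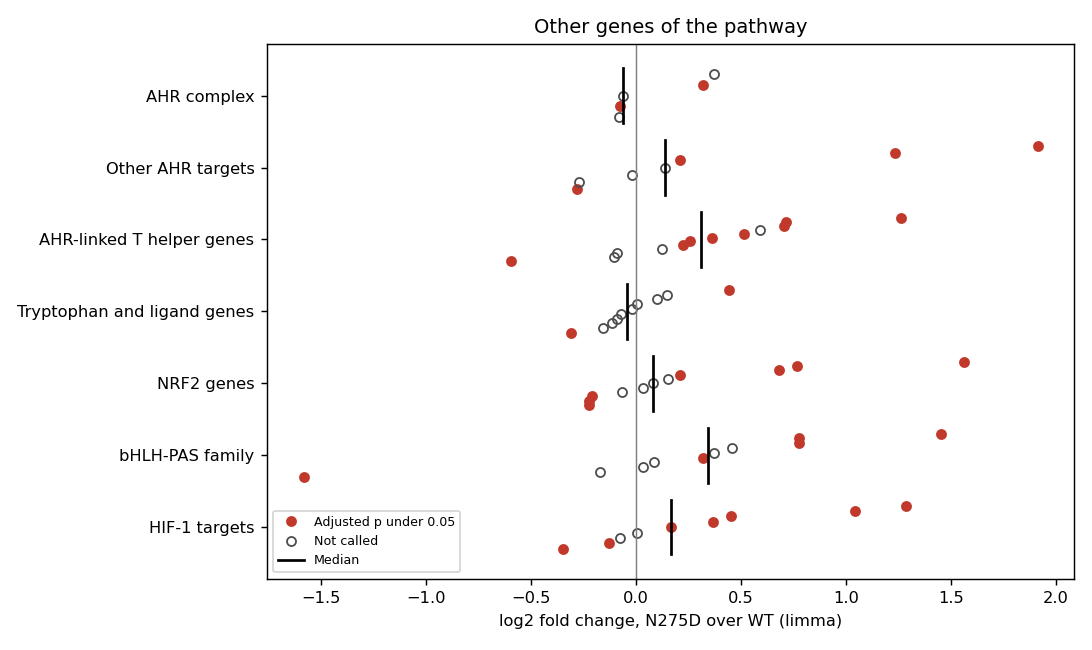
The log2 fold change of N275D over WT cells by limma (x axis) for each tested gene of the 7 lists, with filled red points for an adjusted p under 0.05, open points for genes not called and a black line at the list's median. The AHR-linked T helper genes have their median at 0.31, and the tryptophan and ligand genes lie close to 0 apart from *Slc3a2* and *Kyat3*.

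The genes whose pattern over the 6 libraries was most like that of *Ahr*, among 9580 other genes with a mean of at least 100, were *Herc6*, *Rasgrp1*, *Map3k8*, *Tmem65* and *Erlin1*. Their Pearson r with *Ahr*, on the log2 scale, lay between 0.987 and 0.993. The most opposite were *Ndufs6*, *Clstn1* and *Prcc*, each with r = -0.988. *Cyp1b1* and *Tiparp*, the other members above that mean, had r = -0.787 and -0.588 with *Ahr*. The 6 points share 2 genotypes and the low value of WT replicate 3, so these values describe the libraries only.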

How the data were processed

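RNA-seq of 3 WT and 3 RORγtN275D Th17 libraries was analysed, with genotype and replicate taken from the labels. Per the methods, trimmed reads were mapped to mm10 by STAR and assigned to genes by featureCounts. Versions are not given in the sources used here. The deposited signal values are the authors' normalized reads, in which each library's reads were scaled by 1 factor. Every library had 100% of its values at whole multiples of its factor within 1e-06, so reads were recovered. Further columns deposited by the authors hold log2 fold changes and q-values of their own comparison and group averages, and these were not used.

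The main test was limma 3.58.1 (R 4.3.3, trended prior with 12.0 degrees of freedom) on log2(normalized reads + 1), for 11908 genes with a mean of at least 10, with Benjamini-Hochberg adjustment over all of them and a call at an adjusted p under 0.05. The study used DESeq2, but the deposited values are not raw counts. DESeq2 1.42.0 and edgeR 4.0.16 were therefore run on the recovered reads as alternatives. The edgeR fit called 6089 genes, DESeq2 called 4917 and limma without a trended prior called 5323. DESeq2 was given all genes with a mean above 0, a wider set than in the main test. Other alternatives were pseudocounts of 0.1 and 10, other minimums, TMM and quantile scaling, a prior without trend, the replicate block and each library left out. Of the genes called in the main test, 6056 in all, 2947 were higher and 3109 lower in mutant cells. Reads per library lay between 17659035 and 18510878. Replicates differed by 1.34 to 1.57 times what counting alone gives, and pairs with WT replicate 3 by 3.24 and 3.32 times. The members and lists were chosen with earlier results of these data known. Genes named are the members, in each list the 3 called genes with the largest change, *Arnt*, *Hif1a*, and those most like or opposite to *Ahr*. Uncalled genes, *Il22* and other genes named without this rule were chosen after their values were seen. All columns of single samples were used. Of the genes listed or named by this rule, 2 are not reported here and were left out of the lists.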

Additional observations from a re-analysis of the deposited data

How the results depend on the processing

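*Ahr* and *Tiparp* kept their direction and their call in all 16 alternatives, with log2 fold changes of 0.21 to 0.38 and -0.68 to -0.50. *Cyp1b1* lost its call in DESeq2 only (-0.38, adjusted p = 0.0632). *Ahrr* lost it in the fit without a trended prior (-0.52, adjusted p = 0.0541 from limma) and in DESeq2 (-0.50, adjusted p = 0.0889). *Ahrr* also lost its call without WT replicate 2, mutant replicate 2 or mutant replicate 3. Its log2 fold change ranged from -0.70 to -0.37 when 1 library was left out. The causes were not tested. *Nqo1* was called in no alternative. Most alternatives for *Cyp1a1* were exact permutation tests, which cannot reach 0.05 with so few libraries and so say nothing on its stability. For *Cyp1a1* the adjusted p was 0.289 by limma on all genes with a mean above 0, and 0.510 in DESeq2. With a minimum mean of 100, *Ahrr*, *Nqo1* and *Cyp1a1* were not tested. Genes called at 2-fold numbered 427, against 259 with a pseudocount of 10, 703 with all genes with a mean above 0 and 162 with a minimum mean of 100, because the scale or the genes tested differ.

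Medians of lists, which had no test, moved by more than the spread between libraries as follows. With a minimum mean of 100, fewer genes were tested, and the medians were 0.24 for the T helper genes and 0.0578 for the bHLH-PAS genes. With all genes with a mean above 0 they were -0.0178 for other targets and 0.0846 for HIF-1 targets. DESeq2, which was also run on all genes with a mean above 0, gave -0.0186 and 0.0837 for the same lists. Quantile normalization gave 0 for the receptor's partners, 0.0217 for other targets, -0.15 for tryptophan and ligand genes, 0.17 for bHLH-PAS genes and 0.22 for HIF-1 targets. With 1 library left out the medians ranged from -0.0636 to -0.0328 for the partners, 0.00517 to 0.21 for other targets, -0.0530 to 0.0242 for tryptophan and ligand genes, 0.0480 to 0.12 for NRF2 genes and 0.12 to 0.20 for HIF-1 targets. The medians of the other targets and of the tryptophan and ligand genes thus have no stable sign. Of 20 other genes named from the lists, 18 of 315 values lost the call, in *Hsp90ab1* and *Kyat3*, and 0 reversed. *Slc2a1* and *Ankrd37* were not among these 20. These values were computed after the data were seen.

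With the replicate number as a block, 5727 genes were called, and no member's call changed. *Ahr* had an adjusted p of 0.00319 and *Ahrr* of 0.0170 in the blocked limma fit. Same-numbered libraries deviated from their group means with correlations of -0.0455, 0.0407 and -0.0828, so the numbers were not taken as pairs. Only the libraries numbered 2 correlated best with their own number. Without WT replicate 3, which stood apart from its group, 6398 genes were called, against 6056 with it and 5158 to 5668 without any other library. Depth limits *Cyp1a1* most, with 19 reads over the mutant libraries.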
